A study of Mus musculus with 12 samples.

Results

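RNA of embryonic fibroblasts that lack Ing1 was set against RNA of fibroblasts labelled as lacking both Ing1 and Gadd45a. The comparison rests on 6 of the 12 libraries in all, chosen by their titles: 3 with the genotype Ing1-/- (Ing1 KO) and 3 with the genotype Gadd45a-/-;Ing1-/- (double knockout, DKO). It asks what the labelled loss of Gadd45a goes with in cells that have no Ing1. The other 6 libraries, 3 wild type (WT) and 3 labelled Gadd45a-/-, serve as reference levels and for the test of whether the labelled loss differed with and without Ing1. All cells were primary cultures of C57BL/6N mice, isolated from male embryos at E15.5, untreated, at passage 4 and 80% confluency. The labels leave unsaid whether the 3 libraries per group stem from different embryos, from pools or from 1 culture, so the p-values measure the spread between libraries.

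Ing1 is a chromatin protein that binds a histone mark of active promoters and works within a Sin3 histone deacetylase complex. Gadd45a is a small stress-induced protein without known enzyme activity, which binds PCNA and cell cycle proteins and has been tied to DNA repair and to the removal of DNA methylation, a role in which Ing1 has been described as its partner. Mouse embryonic fibroblasts are the cells that attach and grow when an embryo is dispersed into culture. They are mostly connective tissue cells, and early passages can hold other embryonic cells.

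The targeted genes came first, as a check of the labels. Ing1 stood at 1.01, 1.23 and 1.42 CPM (a gene's counts relative to the TMM-scaled total of its library) in Ing1 KO replicates 1 to 3 and at 1.29, 0.916 and 1.14 CPM in the DKO libraries, against 52.1, 50.4 and 54.4 CPM in the WT. It was low in all 6 libraries, and the 2 groups overlapped. Gadd45a stood at 18, 20.5 and 16.7 CPM in Ing1 KO and at 132, 120 and 127 CPM in the libraries labelled DKO. All 3 libraries labelled as lacking Gadd45a were above all 3 that were not, by 2.78 ± 0.15 on the log2 scale (edgeR log2 fold change ± standard error, SE; edgeR adjusted p = 1.62e-05). The count thus goes against the label. The sources used here do not give which exons the mutant allele lacks, and a count of the whole gene does not check a label when reads fall outside the deleted part.

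A gene that overlaps Gadd45a was lower in the same libraries. E230016M11Rik, a long noncoding gene that overlaps Gadd45a on the opposite strand in the GENCODE annotation, was chosen after its values were seen. It stood at 0.439, 0.458 and 0.432 CPM in Ing1 KO and at 0.0575, 0.0948 and 0.0265 CPM in the libraries labelled DKO, which all lay lower (log2 fold change -2.87 ± 0.58 SE, edgeR adjusted p = 0.00358). In the WT it stood at 0.599, 0.374 and 0.211 CPM and in the libraries labelled Gadd45a KO at 0.0781, 0.0505 and 0 CPM, which did not overlap either, with an edgeR adjusted p of 0.313. The kit used does not mark strand, so reads of the shared stretch cannot be assigned to either gene. Because of these counts the group is called labelled DKO here where the state of Gadd45a matters.

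Of 15098 genes with enough counts to be tested, 3740 (24.8%) were called, which here means an edgeR adjusted p under 0.05. In the labelled DKO libraries 2249 genes (14.9%) were higher and 1491 (9.88%) were lower. These are the shares to set the counts of each gene list against. Large changes were mostly upward, with 284 called genes higher by at least 4-fold and 29 lower by as much, and called changes had a median size of 0.4 on the log2 scale. Without Ing1 KO replicate 2 the count fell to 2249 genes, 1473 higher and 776 lower, of which 2211 were among the 3740. Without DKO replicate 2 the genes called lower came to 872. Libraries of both groups did not overlap for 5896 genes (39.1%), 3602 of them called.

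The 6 libraries held between 31493168 and 41911611 counts assigned to genes. They separated by group on the first principal component, with 64.7% of the variance, on which Ing1 KO lay between -40.2 and -19.2 and DKO between 27.9 and 34.8. The second, with 13.3%, spread the Ing1 KO libraries from -24.9 to 21.7. Ing1 KO was the more variable group, with a median SD between replicates of 0.1 on the log2 CPM scale against 0.0882 in DKO. The Y-linked gene Ddx3y stood at 130 to 146 CPM in the 6 libraries, which carry the label male, and was not called.

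Among genes with a mean of at least 2 CPM over the 6 libraries, the 12 largest rises without overlap, Gadd45a aside, included genes known from macrophages. F13a1, the A subunit of clotting factor XIII and a gene of tissue macrophages, stood at 1.6, 0.747 and 0.696 CPM in Ing1 KO and at 25.3, 14.8 and 7.77 CPM in the labelled DKO. Mrc1, the mannose receptor, stood at 25.3, 21.3 and 38.1 CPM against 277, 272 and 189 CPM. The lowest DKO library exceeded the highest Ing1 KO library by several fold in both genes, and the log2 fold changes were 3.98 ± 0.64 SE and 3.12 ± 0.53 SE (edgeR adjusted p = 0.00268 and 0.00375). The other genes of these 12 were the chemokines Ccl6 (log2 fold change 3.5), Ccl12 (2.86) and Pf4 (3.13), the chemokine receptor Ccr1 (2.79), the inhibitory Fc receptor Fcgr2b (3.22), the lectins Fcna (3.04), Clec4n (2.79) and Siglec1 (2.72), arginase Arg1 (2.79) and the secreted protein Wfdc17 (3.52). None of the 12 had overlapping groups, which the choice of genes required.

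**Figure D1:**
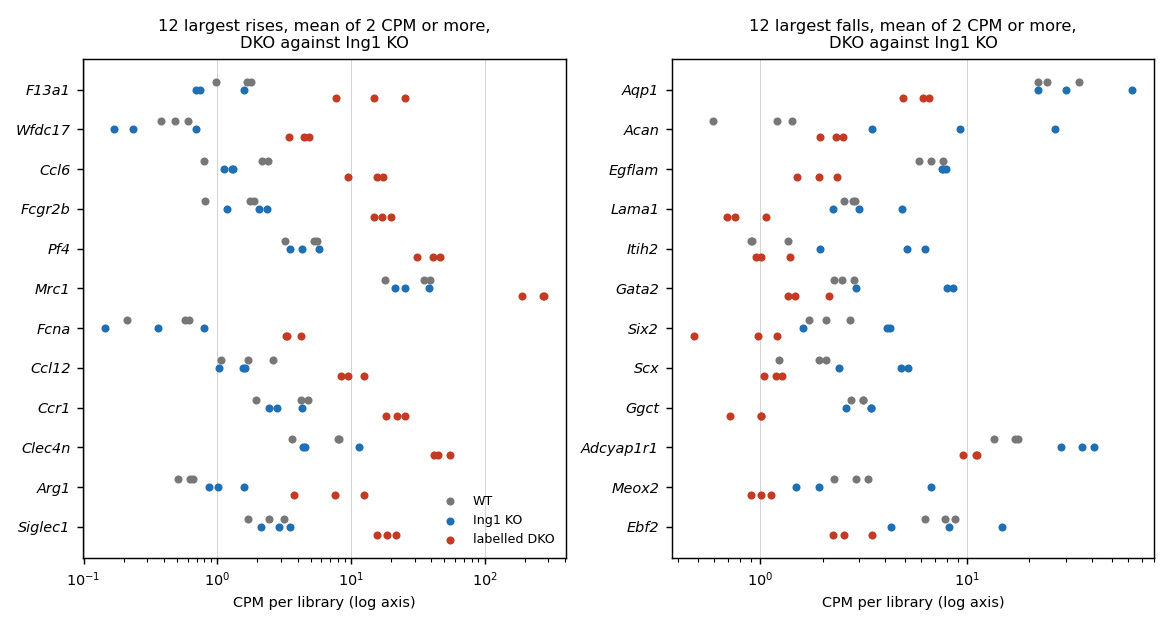
Level in CPM (log axis) of the 12 genes with the largest rises, Gadd45a aside, and the 12 with the largest falls among called genes with a mean of at least 2 CPM and no overlap, 1 point per library for WT, Ing1 KO and labelled DKO. On the left the DKO points lie to the right of both other groups; on the right the Ing1 KO points are more scattered than the DKO points, as for Acan and Aqp1.

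Macrophage marker genes rose as a whole. All 30 markers of the macrophage list passed the filter on low counts, and all 30 were called higher, with a median log2 fold change of 2.16 against 0.009 over all genes tested. Without Ing1 KO replicate 2 the number called was 24. Spi1, which encodes the transcription factor PU.1 of the myeloid lineage, stood at 3.64, 3.88 and 7.8 CPM in Ing1 KO and at 22.4, 21.7 and 18.9 CPM in the labelled DKO. Csf1r, the receptor for macrophage growth factor, stood at 27.4, 26.8 and 47.1 CPM against 161, 130 and 122 CPM. Both groups were clearly apart in both genes, and Ing1 KO replicate 3 was the highest of its group.

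The rule for naming genes picked members of this list by p. Cd68, a lysosomal membrane protein of macrophages, stood at 13.3, 11.2 and 21.9 CPM against 98.3, 84.6 and 87.6 CPM (log2 fold change 2.54 ± 0.41 SE, edgeR adjusted p = 0.00276). Cd14, a co-receptor for bacterial lipopolysaccharide, rose by 1.88 ± 0.31 SE (edgeR adjusted p = 0.00199). The smallest rise in the list was that of Emilin2 (0.77), an extracellular protein, and the largest that of the Fc receptor Fcgr3 (2.57). The others lay between Coro1a (1.79) and Fcgr1 (2.55), among them Ptprc (2.16), the phosphatase CD45 of all leukocytes, Itgam (2.19), Adgre1 (2.38), the complement genes C1qa (2.29), C1qb (2.23) and C1qc (2.29), and Lyz2 (2.47), lysozyme.

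Summed over the 30 markers, the level was 656, 570 and 975 CPM in Ing1 KO and 3767, 3121 and 3158 CPM in the labelled DKO. In the WT it was 460 to 734 CPM and in the libraries labelled Gadd45a KO 260 to 867 CPM, so that the 3 DKO libraries stood above the other 9. For none of the 30 markers was the WT mean nearer to that of DKO than to that of Ing1 KO. Markers of other blood cells gave 1.09 to 1.45 CPM summed over 24 genes in the 6 libraries, with Cd3e, Cd3g, S100a9, Elane, Mcpt4, Fcer1a, Hba-a1 and Hbb-bs among those at 0 in all of them. Those that could be tested were Cd79b, a B cell receptor chain with a log2 fold change of 2.22, and Kit, a receptor of mast cells and progenitors with one of -1.16. Both calls rest on levels under 0.5 CPM and both were lost in several of the alternatives, with edgeR adjusted p of 0.0789 and 0.133 for Cd79b without Ing1 KO replicates 1 and 2 and of 0.0852 and 0.113 for Kit without Ing1 KO or DKO replicate 2. In RNA of whole cultures, fewer cells of a type and less RNA per cell cannot be told apart, and neither can their opposites.

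The markers of tissue-resident and alternatively activated macrophages followed. Of 22, 15 passed the filter and 13 were called higher, with a median log2 fold change of 2.48. A member with low counts elsewhere can pass the filter through DKO alone, which favours rises among those tested. How many did so was not counted. Folr2, a folate receptor, stood at 2.27, 1.64 and 1.75 CPM in Ing1 KO and at 10, 7.39 and 7.16 CPM in the labelled DKO. Maf, a transcription factor of macrophages that fibroblasts also transcribe, rose by 1.04 ± 0.12 SE (edgeR adjusted p = 0.000305). Timd4 (1.91), Stab1 (2.48) and Clec10a (2.7), named here as markers of the list, were called too. Chil3 was at 0 in all 6 libraries, and Cbr2 and Gas6 were not called.

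Of 27 tested genes of lysosomes and phagocytosis, 16 were called higher and 3 lower (median 0.33), with 1 lower without either replicate 2 or DKO replicate 1. Mertk, a receptor for apoptotic cells, stood at 11.3, 10.1 and 11.3 CPM against 27.8, 26.9 and 24.3 CPM (log2 fold change 1.27 ± 0.12 SE, edgeR adjusted p = 7.74e-05). Ctsb, the protease cathepsin B, stood at 978, 921 and 1031 CPM against 1753, 1648 and 1676 CPM (0.79 ± 0.08 SE, edgeR adjusted p = 0.00011). These groups did not overlap in either gene. The scavenger receptor Msr1 (2.63) and the transcription factor Tfec (2.4), both chosen after their values were seen, rose most in the list, and cathepsin K, Ctsk (-0.32), fell. The macrophage marker sum given above moves with these genes, and its part in them was not tested.

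Chemokines and cytokines split by gene. Of 39 tested, 13 were called higher and 4 lower, against 14.9% and 9.88% of all genes. Il1b, interleukin 1 beta, stood at 0.181, 0.193 and 0.24 CPM in Ing1 KO and at 1.78, 1.42 and 0.955 CPM in the labelled DKO (log2 fold change 2.73 ± 0.39 SE, edgeR adjusted p = 0.000501). Ccl5 and Ccl4, chemokines for T cells and monocytes, rose by 2.62 ± 0.34 SE and 2.14 ± 0.33 SE (edgeR adjusted p = 0.0003 and 0.000805). These 3 genes were near the limit of detection in Ing1 KO and came to between 0.955 and 3.16 CPM in DKO. Outside DKO, Il1b reached at most 0.24 CPM and Ccl5 at most 0.371 CPM. Both passed the filter on low counts only through DKO, so they could be tested only because they were high there. They are among the 13 called higher, and the filter thus favours that count. The ligands of the macrophage growth factor receptor, chosen after their values were seen, did not rise. Csf1 stood at 235, 223 and 214 CPM against 220, 211 and 225 CPM (log2 fold change -0.03 ± 0.04 SE, edgeR adjusted p = 0.607), while Il34 fell by 1.18 ± 0.22 SE (edgeR adjusted p = 0.00229). Il6, Cxcl12 and Ccl2, all made by fibroblasts, were not called, at log2 fold changes of -0.38, -0.24 and 0.13.

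Interferon-stimulated genes, which type I and type II interferons switch on against viruses, were the other large group. Of 45 tested, 39 were called higher and none lower, with a median log2 fold change of 1.52. The count lay between 35 and 39 in all alternatives tried. Isg15, a ubiquitin-like modifier, stood at 3.13, 3.93 and 4.34 CPM in Ing1 KO and at 18.2, 17.5 and 26.9 CPM in the labelled DKO. Ifit1, which binds foreign RNA, stood at 1.19, 1.28 and 2.13 CPM against 5.18, 7.24 and 11 CPM. Both were several-fold higher in every DKO library (2.46 ± 0.28 SE and 2.34 ± 0.35 SE, edgeR adjusted p = 0.000461 and 0.00126).

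Bst2, or tetherin, which holds budding viruses at the cell surface, gave one of the smallest p-values of the comparison. It stood at 13.8, 14.2 and 13.5 CPM against 43.3, 41.9 and 47.6 CPM, or 1.68 ± 0.12 SE on the log2 scale (edgeR adjusted p = 2.33e-05). Igtp, an interferon-induced GTPase, stood at 2.33, 2.19 and 2.83 CPM against 6.59, 6.54 and 7.9 CPM, and Trim30a at 5.22, 4.17 and 5.76 CPM against 12.8, 12.4 and 15 CPM. All 3 had tight replicates and wide gaps between the groups, with log2 fold changes of 1.52 ± 0.13 SE for Igtp and 1.41 ± 0.11 SE for Trim30a. The largest changes in the list were those of Oas2 (3.17), Oas1a (2.97) and Rsad2 (2.73). Herc6 (-0.11), Ifi27 (0.03), Gbp2 (0.09), Ifi35 (0.17), Irgm1 (0.21) and Ifit2 (0.22) were not called. Reads of the Oas, Ifit, Gbp and Slfn families can map to several copies and were then counted to no gene, so that their values are uncertain.

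Many but not all promoters of these genes hold a known sequence. Promoter windows of 27025 genes in the RefSeq table (GRCm38.p6) were searched on both strands for GAAA followed, after any 2 bases, by GAAA, which is the core of the interferon-stimulated response element bound by Irf factors. Overlapping matches were counted separately. It occurred in 3.99% of all genes with a promoter, and in 22 of 35 interferon-stimulated genes found there. Gbp2 and Irgm1, which were not called, are among those 22. The 150 bases before the start are printed for 4 members whose values are given above, on the gene's own strand and with the matches in capitals. In Ifit1 the matches lie on the reverse strand.
Isg15, chr4:156200819-156200968, minus strand: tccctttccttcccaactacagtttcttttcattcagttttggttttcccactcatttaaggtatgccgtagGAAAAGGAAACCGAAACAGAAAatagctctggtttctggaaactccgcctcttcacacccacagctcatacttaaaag
Ifit1, chr19:34640739-34640888, plus strand: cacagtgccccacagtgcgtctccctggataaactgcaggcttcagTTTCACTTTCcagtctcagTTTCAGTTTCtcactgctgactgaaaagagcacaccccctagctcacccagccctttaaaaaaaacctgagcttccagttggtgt
Bst2, chr8:71537473-71537622, minus strand: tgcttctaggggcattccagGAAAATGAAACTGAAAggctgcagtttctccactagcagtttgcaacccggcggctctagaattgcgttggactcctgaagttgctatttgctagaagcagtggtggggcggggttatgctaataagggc
Igtp, chr11:58199406-58199555, plus strand: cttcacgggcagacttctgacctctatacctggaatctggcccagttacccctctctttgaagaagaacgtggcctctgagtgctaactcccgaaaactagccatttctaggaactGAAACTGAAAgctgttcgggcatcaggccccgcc
Isg15 holds 3 overlapping matches, Ifit1 and Bst2 hold 2 each and Igtp 1. The members were chosen with their changes known, and a match describes letters, not binding.

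Of 22 tested factors that carry the interferon signal, 13 were called higher and none lower (median 0.24). Irf7, which amplifies the type I response, stood at 3.05, 2.94 and 2.71 CPM against 6.93, 8.78 and 10.1 CPM (log2 fold change 1.57 ± 0.27 SE, edgeR adjusted p = 0.00237). Irf9, the DNA-binding subunit of the factor that type I interferon activates, rose by 0.66 ± 0.09 SE (edgeR adjusted p = 0.000588). The groups were separate in both genes. The receptor chains rose little, Ifnar1 by 0.13, Ifnar2 by 0.24 and Ifngr1 by 0.16, and Irf3, Mavs, Tyk2 and Jak1 were not called. Irf8 (2.02), which belongs to macrophages as well as to interferon signalling, rose most in the list. Of 15 tested genes of antigen presentation by MHC class I, 9 were called higher and none lower (median 0.29). Psmb8, a subunit of the immunoproteasome, stood at 3.31, 3.01 and 2.49 CPM against 6.79, 6.26 and 7.21 CPM, and the class I molecules H2-D1 and H2-T23 rose by 0.59 ± 0.08 SE and 0.56 ± 0.08 SE (edgeR adjusted p = 0.000307 and 0.000362).

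The levels were then set against the WT. The summed interferon-stimulated level was 542, 510 and 527 CPM in Ing1 KO, 823, 803 and 981 CPM in the labelled DKO, and 896, 913 and 790 CPM in the WT. The DKO and WT libraries overlapped, and Ing1 KO lay below both. For 34 of the 39 members called, the WT mean was nearer to DKO than to Ing1 KO. In the WT this level stood beside a macrophage marker sum of 460 to 734 CPM, close to that of Ing1 KO. Whether macrophage RNA contributes to the interferon genes in DKO was not tested.

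**Figure D2:**
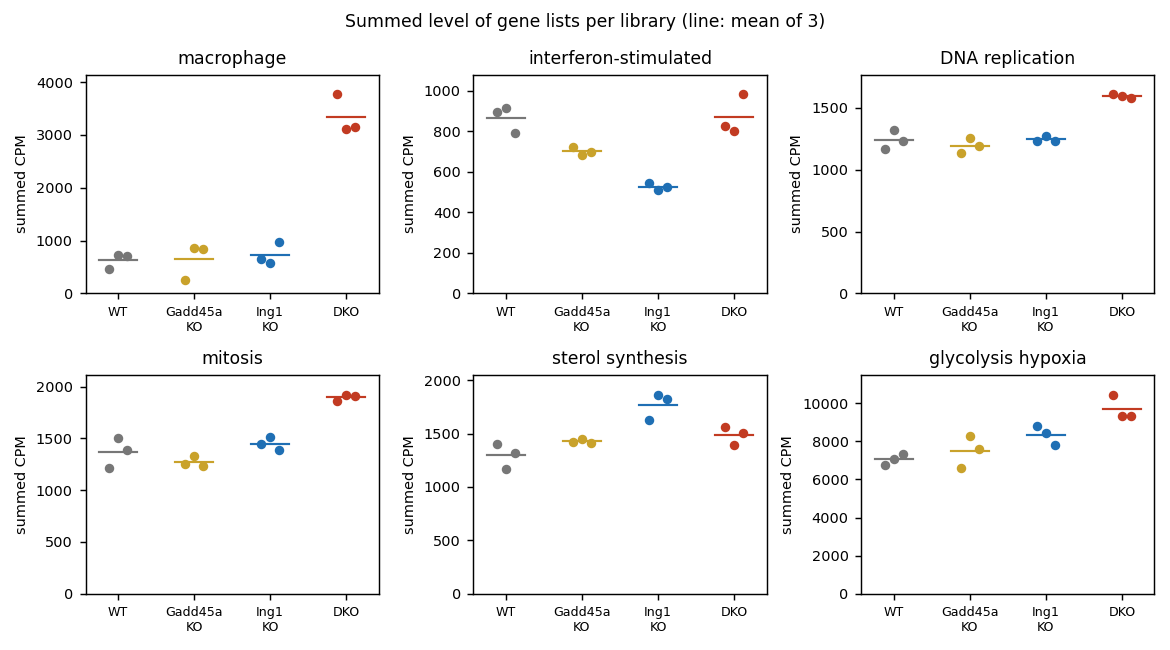
Summed level in CPM of 6 gene lists in each of the 12 libraries, with 1 point per library and a line at the mean of 3; each axis starts at 0. The macrophage sum stands at 3121 CPM or more only in the DKO libraries, while the interferon-stimulated sum of DKO is at the WT level and Ing1 KO lies lowest at 510 to 542 CPM.

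Genes of DNA replication rose together by small steps. Of 39 tested, 33 were called higher and none lower, with a median log2 fold change of 0.35. Mcm6, a subunit of the replicative helicase, stood at 82.8, 84.7 and 80.8 CPM in Ing1 KO and at 112, 113 and 115 CPM in the labelled DKO. Pcna, the sliding clamp that Gadd45a binds, stood at 56.3, 58.7 and 59.3 CPM against 76.5, 78.3 and 75.8 CPM, and Mcm3 at 45.7, 47.5 and 46.9 CPM against 72.9, 67.6 and 68.2 CPM. Replicates lay within a few CPM of each other and the groups were far apart, at log2 fold changes of 0.46 ± 0.05, 0.4 ± 0.04 and 0.58 ± 0.07 SE (edgeR adjusted p = 0.000116, 0.000116 and 0.00019). E2f2, a transcription factor of S phase genes that was chosen after its values were seen, rose most (1.28), from 2.89, 2.34 and 2.81 CPM to 7.11, 7.01 and 5.49 CPM. Fen1, a flap endonuclease, had a log2 fold change of -0.1 and was not called.

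The promoters of replication genes were searched for TTTGGCGC or TTTCGCGC, common forms of the site that E2F factors bind, on both strands. These letters occurred in 0.929% of all genes with a promoter in the table and in 12 of 33 replication genes found there. The 150 bases before the start of Mcm6 are printed to show 3 matches, of which 2 overlap on opposite strands.
Mcm6, chr1:128359706-128359855, minus strand: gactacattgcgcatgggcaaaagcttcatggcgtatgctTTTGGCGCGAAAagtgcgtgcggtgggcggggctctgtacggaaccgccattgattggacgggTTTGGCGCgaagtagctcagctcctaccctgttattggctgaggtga
Among 33 mitosis genes found there, 1 held these letters.

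Genes of mitosis rose in the same range. Of 39 tested, 34 were called higher and none lower (median 0.34), and the count lay between 25 and 35 in the alternatives. Mki67, the proliferation marker Ki-67, stood at 116, 112 and 116 CPM against 165, 164 and 184 CPM (log2 fold change 0.58 ± 0.08 SE, edgeR adjusted p = 0.000449). Nusap1, a spindle protein, stood at 21.5, 20.5 and 21.5 CPM against 32.2, 32 and 33.8 CPM, and the checkpoint kinase Bub1b at 39.3, 41.9 and 38.2 CPM against 57.2, 57.3 and 56.8 CPM. No library of one group reached the other. Cdc20, Foxm1, Anln, Plk1 and Cdc25c were not called, at log2 fold changes from -0.01 to 0.31. The replication sum was 1230 to 1273 CPM in Ing1 KO, 1576 to 1608 CPM in DKO and 1165 to 1318 CPM in the WT, so that here the WT overlapped Ing1 KO. The WT mean was nearer to DKO for 2 of the 33 replication genes called and for 1 of the 34 mitosis genes called. The macrophage marker sum moves with these genes between the groups, and its part in them was not tested.

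Regulators of the cell cycle went both ways, with 6 of 20 called higher and 5 lower, against 14.9% and 9.88% of all genes. The INK4 inhibitors Cdkn2a and Cdkn2b, which block the kinases that start the cycle and gather as fibroblasts age in culture, both fell. Cdkn2a stood at 52.2, 60.7 and 53.6 CPM in Ing1 KO and at 32.7, 36.2 and 35 CPM in the labelled DKO (log2 fold change -0.68 ± 0.1 SE, edgeR adjusted p = 0.000685). Cdkn2b stood at 51.9, 54.9 and 54.8 CPM against 37.7, 34.9 and 35.1 CPM (-0.58 ± 0.07 SE, edgeR adjusted p = 0.000205). Every DKO library was lower than every Ing1 KO library in both. In the WT Cdkn2a stood at 43.3, 31.9 and 34.6 CPM and Cdkn2b at 52.5, 43.3 and 49.5 CPM. The counts cover the whole gene and do not tell apart transcripts that encode different proteins. Rbl1, a relative of the retinoblastoma protein and itself a gene of S phase, rose by 0.66, as did the inhibitors Cdkn1b (0.31), Cdkn1c (0.59) and Cdkn2c (0.4). Myc fell by 0.44 and the cyclin Ccnd2 by 0.32. The p53 target Cdkn1a was not called (-0.22, edgeR adjusted p = 0.0765).

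Among p53 and its target genes, 14 of 32 were called lower and 1 higher (median -0.15), and the number lower lay between 13 and 15 in the alternatives. Gadd45a itself is such a target but was not in the list. Plk2, a kinase, stood at 191, 227 and 178 CPM in Ing1 KO and at 107, 103 and 108 CPM in the labelled DKO (log2 fold change -0.9 ± 0.09 SE, edgeR adjusted p = 9.74e-05). Phlda3, an inhibitor of Akt, stood at 141, 153 and 155 CPM against 114, 113 and 99 CPM (-0.46 ± 0.07 SE, edgeR adjusted p = 0.000634). The death genes Bbc3 (-0.67), Pmaip1 (-0.38) and Bax (-0.35), the regulator Mdm2 (-0.19) and Trp53 (-0.25) fell too, and Perp (-2.05), chosen after its values were seen like these 5, fell most. Sesn1 was the gene that rose, from 23.6, 22.4 and 24.5 CPM to 37.8, 36.9 and 33.7 CPM (0.62 ± 0.06 SE, edgeR adjusted p = 6.32e-05). Of 22 genes of the senescence secretory program 3 were called higher and 1 lower. The number higher was 5 without Ing1 KO replicate 1, and the number lower was 2 without Ing1 KO replicate 3, 3 with DESeq2 and 0 without either replicate 2 or DKO replicate 1. Lmnb1, a lamina protein that is lost in senescent cells, rose by 0.29 ± 0.06 SE (edgeR adjusted p = 0.0033) and Vegfa, the vessel growth factor, by 0.39. Hmgb2, a chromatin protein, rose by 0.27, a call that was lost without Ing1 KO replicate 3 and without DKO replicates 2 and 3 (edgeR adjusted p = 0.0599, 0.0564 and 0.0511).

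**Figure D3:**
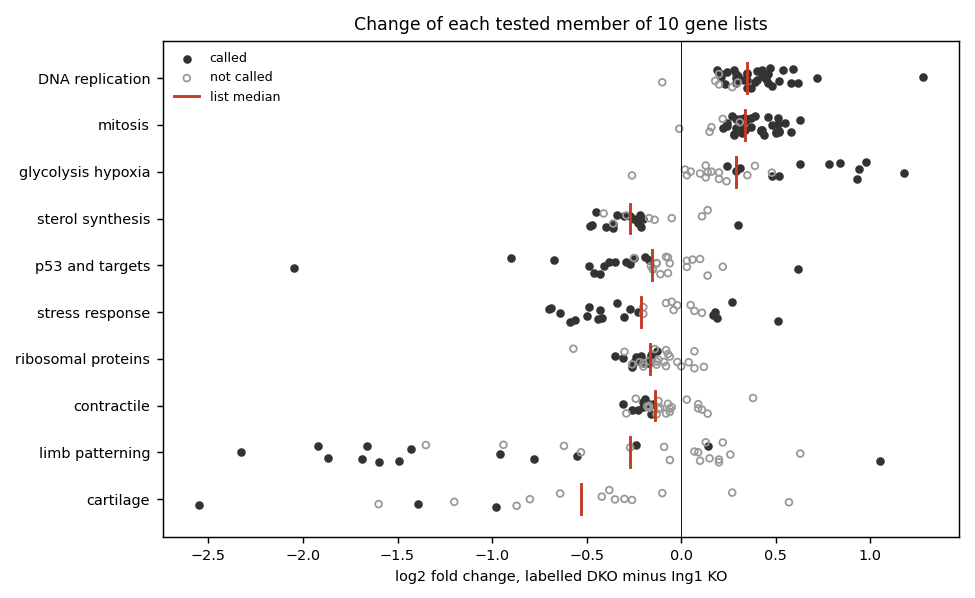
Log2 fold change of the labelled DKO against Ing1 KO for each tested member of 10 gene lists, with filled points for called genes, open points for the others and a red bar at the list median. Replication and mitosis genes form tight groups around 0.35 and 0.34, while patterning and cartilage genes spread widely.

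Metabolic genes moved modestly. Of 23 genes of sterol synthesis and its control, 14 were called lower and 1 higher (median -0.27), but the number lower was 4 without Ing1 KO replicate 2 and 4 without DKO replicate 2. Mvd, an enzyme of the mevalonate pathway, stood at 29.7, 34.6 and 33.9 CPM against 25.3, 22.5 and 24 CPM (log2 fold change -0.45 ± 0.09 SE, edgeR adjusted p = 0.00345). No library of one group reached the other in Mvd, and DKO replicate 1 was the nearest to Ing1 KO. The sum over the list was 1623, 1864 and 1821 CPM in Ing1 KO, 1559, 1392 and 1507 CPM in DKO and 1167 to 1404 CPM in the WT. Of 19 genes of fatty acid synthesis, 4 were called lower and 1 higher, with Fasn, fatty acid synthase, at 219, 240 and 229 CPM against 165, 145 and 166 CPM. Scd1, the stearoyl desaturase, fell by 0.39 and Acly, which makes cytosolic acetyl-CoA, by 0.27 (edgeR adjusted p = 0.000989 and 0.00486).

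Fat cell lipid genes were mixed, with 5 of 16 called higher and 2 lower. Cd36, a fatty acid transporter of fat cells and macrophages, stood at 7.99, 5.4 and 7.32 CPM against 38.3, 42.9 and 26.4 CPM (log2 fold change 2.38 ± 0.36 SE, edgeR adjusted p = 0.00188). Angptl4, an inhibitor of lipoprotein lipase, rose by 1.25 ± 0.19 SE. Plin4, a coat protein of lipid droplets, fell from 0.982, 1.28 and 1.06 CPM to 0.23, 0.284 and 0.212 CPM (-2.19 ± 0.25 SE, edgeR adjusted p = 0.000162). Apoe (2.37), chosen after its values were seen, is also strongly made by macrophages. Of 21 C/EBP and other adipogenic factors, 7 were called lower and 2 higher, and the number lower was 4 without Ing1 KO replicate 2. Gata2 fell from 8.56, 7.95 and 2.9 CPM to 1.47, 1.36 and 2.15 CPM, Klf4 fell by 0.67 ± 0.11 SE, and Cebpa rose by 0.63 ± 0.12 SE (edgeR adjusted p = 0.00273, 0.00143 and 0.00216). Pparg, the master factor of fat cells, was not called (-0.21).

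Stress genes held more falls than rises. Of 28 tested, 14 were called lower and 5 higher (median -0.21). Atf5, a transcription factor of amino acid shortage, stood at 245, 297 and 303 CPM against 169, 181 and 191 CPM (log2 fold change -0.64 ± 0.1 SE, edgeR adjusted p = 0.00163). Nupr1, a stress-induced nuclear protein, stood at 70.2, 74.6 and 65.2 CPM against 52.9, 49.6 and 54.1 CPM, and Shmt2, of mitochondrial serine use, at 115, 141 and 122 CPM against 93.6, 92.5 and 92.9 CPM. No DKO library reached Ing1 KO in these genes. Phgdh (-0.7), Psat1 (-0.43), Asns (-0.3) and Ddit3 (-0.49), chosen after their values were seen, fell too. Of the chaperone genes Hsp90b1 rose by 0.19, Pdia4 by 0.17 and Sdf2l1 by 0.27, and Hspa5 was not called (-0.04). The number called higher was 3 without Ing1 KO replicate 1 or 3, 2 without Ing1 KO replicate 2 or DKO replicate 1 or 3, and 1 without DKO replicate 2.

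Glycolysis and hypoxia genes held 12 called higher and none lower of 27 (median 0.29), a number that was 4 without Ing1 KO replicate 2, 5 without DKO replicate 1 and 6 without Ing1 KO replicate 3. Ndrg1, a gene induced by low oxygen, stood at 62.9, 60.9 and 57.5 CPM against 135, 102 and 109 CPM (log2 fold change 0.93 ± 0.14 SE, edgeR adjusted p = 0.00168). Pdk1, a kinase that inhibits pyruvate dehydrogenase, stood at 93.9, 77.4 and 69.5 CPM against 130, 125 and 118 CPM, and Pfkfb4 rose by 0.48 ± 0.08 SE. Egln3 (1.18), Bnip3 (0.98) and Slc2a1 (0.94), targets of the hypoxia factor Hif1a chosen after their values were seen, rose, as did the glycolytic enzymes Gapdh (0.29), Pgam1 (0.31) and Tpi1 (0.24). Ldha, Pgk1, Pkm and Eno1 were not called.

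Of 34 antioxidant and NRF2 target genes, 7 were called higher and 5 lower (median 0.03), against 14.9% and 9.88% of all genes. The number lower was 3 without Ing1 KO replicate 1 or DKO replicate 1 or 2. Fth1, the heavy chain of the iron store ferritin, had the smallest p of the comparison. It stood at 389, 366 and 390 CPM in Ing1 KO and at 703, 719 and 677 CPM in the labelled DKO (log2 fold change 0.88 ± 0.06 SE, edgeR adjusted p = 8.9e-06). Hmox1, which breaks down heme, stood at 86.2, 85.3 and 83.2 CPM against 151, 140 and 137 CPM (0.75 ± 0.06 SE, edgeR adjusted p = 2.33e-05). The WT libraries were at 379 to 418 CPM for Fth1 and 80.9 to 90 CPM for Hmox1, at the level of Ing1 KO. Nqo1, a classic NRF2 target, fell from 11.3, 10.4 and 8.59 CPM to 6.53, 5.78 and 5.94 CPM (-0.73 ± 0.11 SE, edgeR adjusted p = 0.000665), and Gclc, Gclm, Txnrd1 and Srxn1, targets of the same factor, were not called. Ferritin and heme oxygenase are abundant in macrophages, and the part of the macrophage marker sum in these genes was not tested.

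The 12 largest falls without overlap, again among genes with a mean of at least 2 CPM, were of mixed function. Aqp1, a water channel, stood at 63, 30.2 and 22.1 CPM in Ing1 KO and at 6.53, 4.9 and 6.13 CPM in the labelled DKO (log2 fold change -2.71 ± 0.42 SE, edgeR adjusted p = 0.00243). Egflam, a matrix protein of synapses, stood at 7.91, 7.68 and 7.58 CPM against 1.5, 1.93 and 2.36 CPM (-2 ± 0.3 SE, edgeR adjusted p = 0.00128). Scx, the transcription factor of tendon, stood at 5.17, 4.79 and 2.4 CPM against 1.27, 1.04 and 1.19 CPM. Lama1 (-1.99), Itih2 (-1.99), Six2 (-1.92), Ggct (-1.79), Adcyap1r1 (-1.74), Meox2 (-1.73) and Ebf2 (-1.72) completed these 12, with Gata2 and Acan. Genes below that level, such as Plin4 and E230016M11Rik, fell by more than some of them. Acan, the large proteoglycan of cartilage, varied from 3.45 to 26.7 CPM within Ing1 KO and lay at 1.94 to 2.5 CPM in DKO. Its call (-2.55, edgeR adjusted p = 0.0228) was lost without each DKO library in turn (edgeR adjusted p = 0.0658, 0.0724 and 0.0764), as was that of Meox2 (0.0861, 0.0964 and 0.105), a homeobox gene with 6.69 CPM in Ing1 KO replicate 1 and 1.93 and 1.49 CPM in the others.

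Transcription factors of limb and regional patterning fell more often than they rose. Of 31 tested, 12 were called lower and 2 higher (median -0.27), and 7 were called lower without Ing1 KO replicate 2. The number higher was 1 without either replicate 1 and 0 without either replicate 2. Pitx1, a factor of the hindlimb, stood at 7.31, 6.21 and 6.02 CPM against 1.44, 1.55 and 3 CPM (log2 fold change -1.69 ± 0.31 SE, edgeR adjusted p = 0.00276). Foxc2 stood at 14, 14.6 and 12 CPM against 9.52, 9.42 and 8.83 CPM. Every DKO library was below every Ing1 KO library in both. Barx1 (-2.33), Sall1 (-1.87) and Foxf2 (-1.66), chosen after their values were seen, fell as well, while Alx4 (1.05) rose and Tbx3, Tbx5, Tbx15 and Hand2 were not called. The Hox genes stayed near the background, with 2 of 35 called higher and 3 lower. The number lower was 8 without Ing1 KO replicate 3, 7 without DKO replicate 3 and 0 without Ing1 KO replicate 2, and the number higher was 4 without Ing1 KO replicate 3, 1 without Ing1 KO replicate 1 or DKO replicate 3 and 0 without either replicate 2. Hoxa5 (-1.02), Hoxc5 (-0.49) and Hoxb8 (0.49) lost their calls without Ing1 KO replicate 2 (edgeR adjusted p = 0.0618, 0.0799 and 0.0767).

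Of 16 cartilage genes, 3 were called lower and none higher (median -0.53). Col10a1, the collagen of growth plate cartilage, fell from 3.23, 5.85 and 3.93 CPM to 1.78, 2.12 and 1.09 CPM (log2 fold change -1.39 ± 0.29 SE, edgeR adjusted p = 0.00471). Col9a3 (-0.98) was lost as a call without Ing1 KO replicate 1 (edgeR adjusted p = 0.214) and without each DKO library (0.132, 0.0699 and 0.126). The number of cartilage genes called lower was 1 without DKO replicate 1 or 2 and 6 without Ing1 KO replicate 3. Of 22 osteoblast and BMP response genes, 4 were called lower and 2 higher, against 9.88% and 14.9% of all genes. Without Ing1 KO replicate 3 the number lower was 8. Msx2, a BMP target, fell from 2.38, 2.63 and 1.97 CPM to 0.604, 0.885 and 1.06 CPM, and Id2 rose from 24.7, 23.5 and 27 CPM to 44.6, 46.2 and 46.7 CPM (edgeR adjusted p = 0.000793 and 5.73e-05).

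Among collagen genes the most abundant were not called. Col1a1 stood at 22117, 19991 and 18995 CPM against 22504, 20064 and 20856 CPM, and Col1a2 had an edgeR adjusted p of 0.0558, so neither was called. Of 33 genes of collagens and their assembly, 6 were called lower and 1 higher, with 3 lower without Ing1 KO replicate 2 and 2 without DKO replicate 2. The number higher was 4 without Ing1 KO replicate 1, 4 with DESeq2, 3 without DKO replicate 3 and 0 without Ing1 KO replicate 2. Col18a1 stood at 269, 384 and 227 CPM against 119, 119 and 107 CPM (log2 fold change -1.35 ± 0.2 SE, edgeR adjusted p = 0.00182), and Col5a3 fell by 1.01 ± 0.19 SE. Col4a2, of basement membranes, fell by 0.32, a call lost without Ing1 KO replicate 2 or DKO replicate 2 (edgeR adjusted p = 0.0571 and 0.0526). Of 32 matrix glycoproteins, 7 were called lower and 4 higher, against 9.88% and 14.9% of all genes. Fn1, fibronectin, stood at 9929, 11068 and 10568 CPM against 7601, 6652 and 8563 CPM, Fbn1 fell by 0.4 and Fbln1 rose by 0.66 (edgeR adjusted p = 0.00108, 0.00269 and 0.000529).

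Of 12 small proteoglycans, 3 were called higher and none lower, with 5 higher without Ing1 KO replicate 1, 1 higher without DKO replicate 2 and 1 lower without Ing1 KO replicate 3. Aspn, asporin, rose from 882, 732 and 1111 CPM to 1397, 1347 and 1271 CPM (log2 fold change 0.56 ± 0.12 SE, edgeR adjusted p = 0.00791). Kera (1.48), under 2 CPM in all libraries, and Podn (0.34, edgeR adjusted p = 0.0485) lost their calls in several alternatives, Podn with DKO replicate 1 left out at 0.131 and Kera with DKO replicate 2 left out at 0.0544. Of 23 metalloproteinases and inhibitors, 10 were called higher and 4 lower, but the higher ones were 3 without Ing1 KO replicate 2, 4 without DKO replicate 1 and 5 without DKO replicate 2. Mmp8, the neutrophil and macrophage collagenase, rose from 0.0775, 0.145 and 0.312 CPM to 1.32, 1.33 and 2.65 CPM (3.28 ± 0.51 SE, edgeR adjusted p = 0.000931), and Mmp27 rose by 1.78. Mmp16, a membrane-bound enzyme, fell from 26.4, 25 and 28.5 CPM to 17.3, 16.3 and 19.1 CPM. Of 30 contractile and cytoskeletal genes, 10 were called lower and none higher (median -0.14), a number that came to 2 without Ing1 KO replicate 2, 2 without DKO replicate 2 and 4 without DKO replicate 3. Tgfb1i1 fell by 0.23 and Zyx, zyxin, by 0.26, both proteins of focal adhesions, and Actn4 fell by 0.2, a call lost in the same pair of alternatives (edgeR adjusted p = 0.0552 and 0.0547).

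Markers of fibroblasts themselves mostly fell, with a small median log2 fold change of -0.13. Of 19 tested, 3 had a positive log2 fold change. Called were 4 lower, Meox2 (-1.73) among them, and 1 higher, with 2 lower without DKO replicate 1 or 2 and 2 higher without Ing1 KO replicate 1. Their sum was 6601 to 6662 CPM in Ing1 KO and 5634 to 6323 CPM in DKO. Vim, vimentin, stood at 3158, 3328 and 3056 CPM against 2407, 2327 and 2538 CPM (log2 fold change -0.39 ± 0.06 SE, edgeR adjusted p = 0.000923), and the homeobox gene Prrx2 fell by 0.5. Pdgfra, a receptor on fibroblasts, rose from 459, 320 and 456 CPM to 614, 700 and 799 CPM (0.77 ± 0.14 SE, edgeR adjusted p = 0.00341). Markers of the labelled cell type were thus high in all 6 libraries.

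Markers of other cell types were low or mixed. Of 11 endothelial genes, 4 were called higher and 3 lower. Summed over the 16 genes of the list, the level was 164, 154 and 235 CPM in Ing1 KO and 305, 306 and 266 CPM in DKO. In the WT it was 202 to 227 CPM. The 3 risers named next were at most 4.77 CPM and hold little of that rise, and Pecam1 passed the filter on low counts only through DKO. Pecam1, Kdr and Vwf rose, Vwf from 0.62, 0.626 and 0.863 CPM to 2.07, 1.86 and 1.78 CPM, while Tek (-1.11), Emcn (-1.27) and Eng (-0.55) fell, Cdh5 was not called (0.01), and Cldn5 and Sox17 were at 0 in all 6 libraries. Among 6 epithelial genes Krt7 fell (-1.54) and Cdh1 rose (2.14), the latter with an edgeR adjusted p of 0.0574 without Ing1 KO replicate 2, and Grhl2 was at 0 in all 6. Of 11 muscle genes Acta1 fell (-0.68) and Tnnt1 rose (0.75), with Myod1, Myf5, Myf6, Pax7 and Tnnc1 at 0 in all 6. Pax3 (2.09) was highest in DKO replicate 2, at 3.03 CPM against 1.12 and 0.265 CPM in the others, and lost its call without that library (edgeR adjusted p = 0.178). Of 14 genes of neurons and Schwann cells, Mbp rose (0.92) and Stmn2 fell (-1.17), with Rbfox3 at 0. Of 12 mesothelial and pericyte genes, 5 were called lower, a number that came to 1 to 3 without any library but Ing1 KO replicate 1. Cspg4 fell from 127, 149 and 134 CPM to 90.9, 73.5 and 74.9 CPM, while Upk3b (-1.64) and Rgs5 (-1.04) lost their calls without DKO replicate 2 (edgeR adjusted p = 0.086 and 0.0722).

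Early genes of growth factor signalling fell more than they rose, with 10 of 29 called lower and 3 higher. Egr1 stood at 55.6, 59.3 and 50.3 CPM in Ing1 KO and at 35.3, 34.9 and 39.1 CPM in the labelled DKO (log2 fold change -0.59 ± 0.07 SE, edgeR adjusted p = 0.000146), and Nr4a1, a nuclear receptor, fell by 0.44 ± 0.08 SE. Atf3 rose from 4.29, 4.77 and 5.9 CPM to 10.1, 9.19 and 9.44 CPM, and Fos, Jun and Junb were not called. Of 27 growth factors and receptors, 5 were called lower and 2 higher, against 9.88% and 14.9% of all genes. Without Ing1 KO replicate 2 the number lower was 2, and without DKO replicate 3 the number higher was 4. Bdnf, a neurotrophin, fell from 23.6, 23.8 and 20.1 CPM to 14.6, 14 and 13.5 CPM, while the PDGF ligands Pdgfb and Pdgfd rose by 1.27 ± 0.19 SE and 0.43 ± 0.08 SE (edgeR adjusted p = 0.000159, 0.00057 and 0.00296). Of 18 genes of the IGF axis and insulin signalling, 6 were called lower and 3 higher, with 2 lower when either replicate 2 was left out. Irs1, the insulin receptor substrate, fell from 53.7, 51.9 and 55.3 CPM to 34.5, 33.7 and 37.9 CPM, and Foxo1 and Foxo3, factors that insulin holds in check, rose by 0.28 and 0.21.

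Few partners of the targeted genes were called. Of 22 genes of the Gadd45 and ING families and the Sin3 complex, 2 were called higher and none lower. Sap30, a Sin3 subunit, stood at 9.54, 7.92 and 7.65 CPM against 14.5, 13.6 and 13.2 CPM (log2 fold change 0.72 ± 0.13 SE, edgeR adjusted p = 0.00184), and Ing2 (0.23) lost its call in several alternatives, with an edgeR adjusted p of 0.116 without DKO replicate 1. Gadd45b stood at 35.4, 38.2 and 33.2 CPM against 34.9, 34.8 and 33.8 CPM and was not called, like Gadd45g (-0.05). Of 25 genes of DNA methylation and its removal, 7 were called higher and 3 lower, against 14.9% and 9.88% of all genes. Neil3, a DNA glycosylase of dividing cells, stood at 3.21, 3.9 and 3.31 CPM against 6.9, 7.71 and 7.35 CPM (1.07 ± 0.12 SE, edgeR adjusted p = 0.000159). Apobec1, a cytidine deaminase that macrophages express, rose by 1.58 ± 0.23 SE, Idh2 by 0.38, Tet1 by 0.42 and Tet2 by 0.34, and Tet3, Tdg and Dnmt3a were not called. Of 24 excision repair genes, 2 were called higher and 1 lower: Parp1 rose by 0.27 ± 0.04 SE and Ung by 0.58 ± 0.14 SE (edgeR adjusted p = 0.000487 and 0.00998), and Ogg1 (-0.24) lost its call without Ing1 KO replicate 2 (edgeR adjusted p = 0.114).

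The remaining groups lay near the background or rested on single libraries. Of 38 ribosomal protein genes 16 were called lower and none higher (median -0.17), but 3 without Ing1 KO replicate 2, 7 without DKO replicate 3 and 9 without DKO replicate 1. Rpl8 and Rpl10a fell by 0.23 and 0.35, and the many pseudogene copies of such genes make their counts uncertain. Of 36 nuclear genes of oxidative phosphorylation 5 were called lower and 1 higher, and 0 were called lower without either replicate 2, 2 without either replicate 3 and 3 without DKO replicate 1. Sdhd rose by 0.18, and Atp5g1 (-0.28) and Cyc1 (-0.16) lost their calls in both cases. Of 12 genes encoded in mitochondria, mt-Atp8 (0.35), mt-Co2 (0.2), mt-Co1 (0.2) and mt-Nd1 (0.18) were called higher and none lower. The number higher was 1 without Ing1 KO replicate 2, and 1 gene was called lower with RLE scaling, with DESeq2 or with a filter of 1 CPM and 2 without a filter.

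Of 20 genes of TGF-beta signalling, 2 were called higher and 2 lower, against 14.9% and 9.88% of all genes. The number higher was 4 without Ing1 KO replicate 1 and 1 without Ing1 KO replicate 2 or DKO replicate 1. The number lower was 1 without each DKO library in turn and 0 without Ing1 KO replicate 2. The receptor Tgfbr1 rose by 0.43, while Tgfbr2 (0.25) and Tgif1 (-0.21) lost their calls without Ing1 KO replicate 2 (edgeR adjusted p = 0.0658 and 0.0754). Of 36 Wnt genes 6 were called lower and 1 higher, a balance that rests on single libraries. Without DKO replicate 3 it was 1 lower and 3 higher, and without Ing1 KO replicate 3 it was 10 lower and 5 higher. The number lower was 2 without Ing1 KO replicate 2 and 3 without DKO replicate 2, and the number higher was 4 without Ing1 KO replicate 1 and 5 with DESeq2. The co-receptor Lrp5 rose by 0.33 and the ligand Wnt2 fell by 0.66, and the receptor Fzd4 (-0.88) lost its call without either replicate 1 (edgeR adjusted p = 0.0677 for Ing1 KO and 0.0817 for DKO). Of 20 imprinted genes 2 were called higher and 3 lower, with 5 higher without Ing1 KO replicate 3 and 1 without Ing1 KO replicate 1 or either replicate 2, and with Zim1 up by 0.7 and Ndn down by 0.22, a growth suppressor, while Impact (-0.2) had an edgeR adjusted p of 0.0508 without Ing1 KO replicate 3. Of 11 histone genes 3 were called lower, and 1 without Ing1 KO replicate 2, with DESeq2 or with a filter of 1 CPM. They were Hist1h2bc (-0.32), Hist1h3b (-1.43) and Hist1h4h (-1.31). The last 2 had edgeR adjusted p of 0.121 and 0.114 without Ing1 KO replicate 2, and RNA selected for poly(A) tails holds little of most histone messages.

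**Figure D4:**
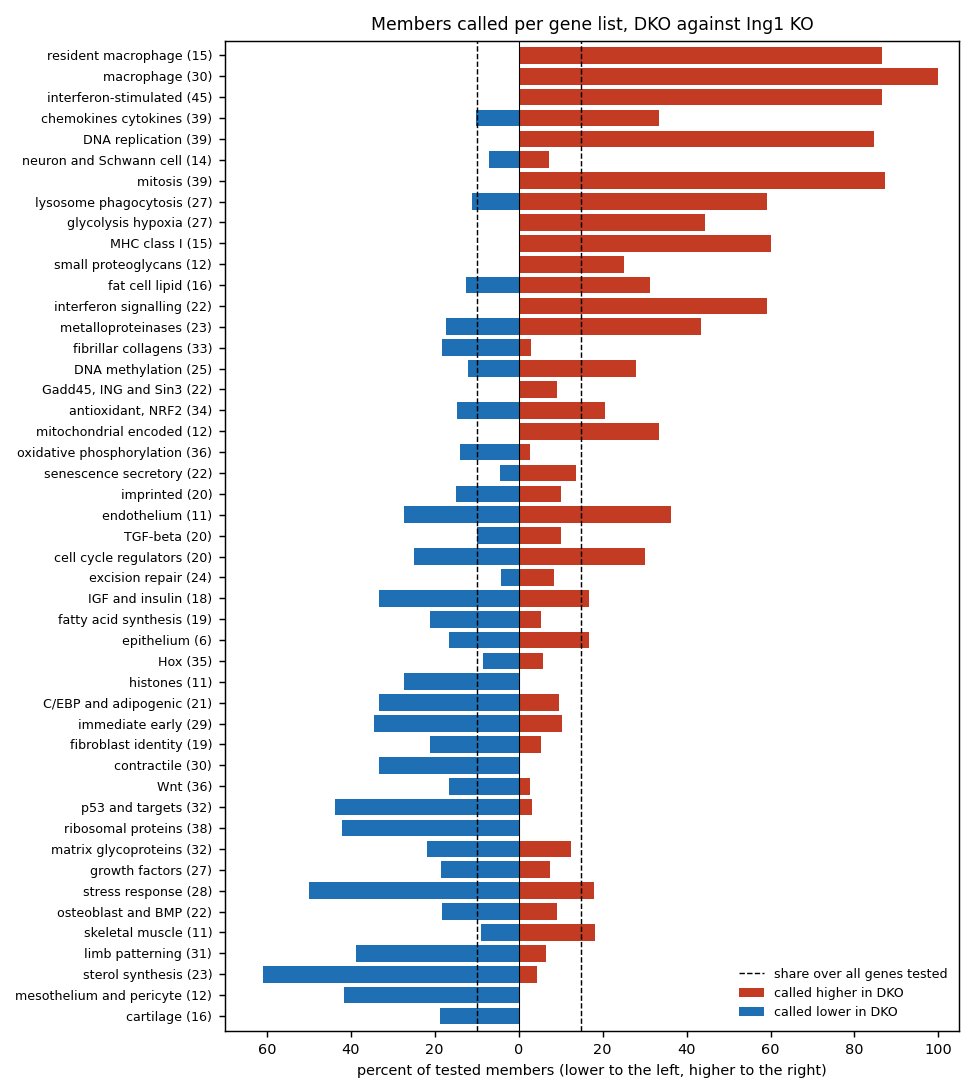
Percent of tested members called higher (right, red) and lower (left, blue) in the labelled DKO for each gene list with at least 5 tested members, whose number stands in parentheses; lists are ordered by their median change. Dashed lines mark the shares over all genes tested, 14.9% higher and 9.88% lower. The macrophage, interferon, replication and mitosis lists exceed them on the right and the sterol and stress lists on the left. Other lists do so too, such as glycolysis and hypoxia on the right and p53 and ribosomal proteins on the left.

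Whether the labelled loss of Gadd45a went with different changes with and without Ing1 was tested as a difference of differences, DKO less Ing1 KO minus labelled Gadd45a KO less WT. It was called for 2687 of 15098 genes (17.8%), positive for 1569 (10.4%) and negative for 1118 (7.4%). Of the 3740 genes called between DKO and Ing1 KO, 2314 also had a called difference in the same direction, none had one in the opposite direction and 1426 had none. Both tests use the same DKO and Ing1 KO libraries, which favours the same direction. The count was 1386 without Ing1 KO replicate 2 and 1607 without DKO replicate 2. Across genes, the log2 fold changes with and without Ing1 had a correlation of -0.0255, and the 2 contrasts share no library, though genes are not independent replicates. Among the named genes, only Gadd45a was called in the labelled Gadd45a KO against the WT (edgeR adjusted p = 0.000342). The next lowest edgeR adjusted p was 0.313, for mt-Atp8. Changes that small beside their error can give a correlation near 0 whether or not both sets are related, so it does not decide this.

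The groups described above appear in this test too. The difference of differences was positive and called for 39 of 45 interferon-stimulated genes, whose median log2 fold change was -0.45 in the labelled Gadd45a KO against the WT. It was positive and called for 17 of 30 macrophage markers, 28 of 39 replication genes and 27 of 39 mitosis genes, and negative and called for 13 of 23 sterol genes and 12 of 28 stress genes. Isg15 stood at 22.7, 21.6 and 12.5 CPM in the WT and at 11, 7.21 and 9.09 CPM in the labelled Gadd45a KO, a difference of differences of 3.52 ± 0.38 SE (edgeR adjusted p = 0.00125). The WT lay above that group in every library, but this change by itself was not called (log2 fold change -1.06, edgeR adjusted p = 0.425). For F13a1, Ccl6 and Ifit1 the value was 3.86, 3.92 and 3.59, and on the negative side it was -2.31 for Aqp1, -1.94 for Egflam, -2.01 for Gata2 and -2.24 for Rbfox1, a splicing regulator that fell by 1.63 in DKO against Ing1 KO. Gadd45a itself rose in both settings, by 2.78 here and by 2.24 in the labelled Gadd45a KO against WT, with a difference of 0.53 ± 0.2 SE (edgeR adjusted p = 0.0898).

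**Figure D5:**
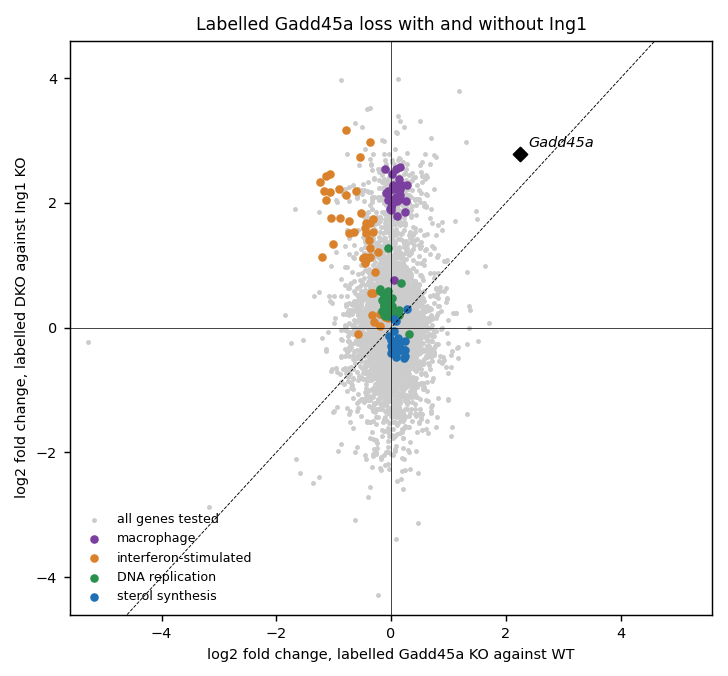
Log2 fold change of the labelled DKO against Ing1 KO (vertical) and of the labelled Gadd45a KO against WT (horizontal) for every gene tested in grey, with 4 gene lists in colour, Gadd45a as a diamond and a dashed line of equal change. Interferon-stimulated genes lie at the upper left and macrophage genes above the middle, while Gadd45a lies near the dashed line.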

How the data were processed

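RNA of 12 libraries was measured by sequencing of poly(A) RNA with TruSeq v2 chemistry, which keeps no strand information. The authors deposited read counts per gene for each library, as whole numbers over 37991 Ensembl identifiers. Per the submitters' processing notes, TopHat2 2.0.9, Bowtie2 2.1.0, HTSeq 0.5.4 and DESeq were used with mm9 (NCBIM37); their settings, strand included, are not given in the sources used here. The 5 summary lines, 23.89 to 24.91% of listed reads, were left out. A read that maps to several copies was counted to no gene, and 66 of the 174 named genes overlap a gene on the opposite strand.

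The deposited counts were tested with edgeR 4.0.16 (R 4.3.3, limma 3.58.1) by its quasi-likelihood test over all 12 libraries with TMM scaling and edgeR's filter on low counts, and adjusted by Benjamini-Hochberg over 15098 genes. Replicate error, as the biological coefficient of variation, was 8.17%. Gene symbols came from GENCODE M21, promoters from RefSeq GRCm38.p6. Named were the 12 genes that changed most in each direction among called genes with a mean of at least 2 CPM, a symbol that is not clone-based and no overlap, up to 3 called members of each list by p, 4 per direction by the difference of differences, and 5 near Gadd45a; others are marked in the text, and some genes so named are not reported here. The members and lists were chosen with earlier results of these data known. Simulated data (14957 genes) held 100 genes changed 1.5-fold and 100 changed 2-fold, as many up as down, at a mean of at least 2 CPM. Their replicate error was that fitted to the real counts. For this comparison the test recovered 78% and 97% of them, with 3.85% false calls. For the difference of differences it recovered 59% and 85%, with 7.1% false calls. Far fewer genes changed there than the 24.8% called here, so these rates need not hold for the real data or for genes of lower level. Alternatives were DESeq2 1.42.0, RLE scaling, other filters, the 6 libraries alone, a replicate block and each library left out. Tables and plots used Python 3.11.15, pandas 2.3.3, numpy 2.4.6 and matplotlib 3.10.9.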

Additional observations from a re-analysis of the deposited data

Results flagged for a closer look

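For 142 of the 174 named genes the difference of differences between the labelled losses of Gadd45a with and without Ing1 was called (edgeR, adjusted p under 0.05). The values of those reported here follow. Each is that difference on the log2 scale, positive where DKO against Ing1 KO exceeded labelled Gadd45a KO against WT. It shares the 6 DKO and Ing1 KO libraries with the comparison by which the genes were named, and no cause was tested.

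Among the genes that rose or fell most and those picked for this difference, it was 3.92 for Ccl6, 3.88 for Wfdc17, 3.86 for F13a1, 3.59 for Ifit1, 3.52 for Isg15, 3.11 for Arg1, 3.05 for Pf4, 3.01 for Mrc1 and 3.0 for Fcgr2b. Further values were 2.91 for Clec4n, 2.82 for Ccr1, 2.78 for Ccl12 and 2.59 for Siglec1. On the negative side it was -1.47 for Ggct, -1.59 for Adcyap1r1, -1.75 for Scx, -1.87 for Six2, -1.9 for Lama1, -1.94 for Egflam, -2.01 for Gata2, -2.24 for Rbfox1 and -2.31 for Aqp1.

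Among macrophage, lysosome, chemokine, interferon and antigen presentation genes, it was 2.45 for Cd68, 2.34 for Irf7, 2.19 for Ccl4, 2.11 for Bst2, 1.95 for Igtp, 1.94 for Ccl5, 1.88 for Cd14, 1.87 for Folr2 and 1.79 for Trim30a. Further values were 1.58 for Psmb8, 1.34 for Mertk, 1.12 for Maf, 0.99 for Irf9, 0.79 for Ctsb, 0.73 for H2-D1 and 0.54 for H2-T23.

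Among genes of replication, mitosis, the cell cycle, p53, senescence, DNA methylation and repair, it was 1.64 for Apobec1, 1.23 for Neil3, 0.84 for Nusap1, 0.79 for Rbl1, 0.74 for Sap30, 0.69 for Mki67, 0.65 for Sesn1, 0.63 for Mcm3 and 0.54 for Bub1b. Further values were 0.51 for Mcm6, 0.5 for Pcna, 0.39 for Idh2, 0.29 for Lmnb1 and 0.25 for Parp1. On the negative side it was -0.32 for Ogg1, -0.48 for Phlda3, -0.54 for Cdkn2b, -0.71 for Cdkn2a and -0.9 for Plk2.

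Among metabolic, stress, antioxidant, mitochondrial and ribosomal genes, it was 2.67 for Cd36, 1.46 for Angptl4, 0.96 for Fth1, 0.81 for Ndrg1, 0.79 for Cebpa, 0.76 for mt-Atp8, 0.75 for Hmox1, 0.63 for Pdk1 and 0.42 for mt-Co1. Further values were 0.42 for mt-Co2, 0.4 for Pfkfb4 and 0.25 for Sdhd. On the negative side it was -0.27 for Cyc1, -0.34 for Acly, -0.36 for Rpl8, -0.47 for Scd1, -0.49 for Nupr1, -0.61 for Shmt2, -0.64 for Klf4, -0.66 for Rpl10a and -0.69 for Mvd. Lower values also held, with -0.71 for Fasn, -0.72 for Nqo1, -0.94 for Atf5 and -2.12 for Plin4.

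Among genes of matrix, cartilage, bone, contraction and patterning, it was 3.9 for Mmp8, 1.98 for Mmp27, 1.95 for Kera, 0.86 for Id2, 0.75 for Aspn and 0.72 for Fbln1. On the negative side it was -0.31 for Actn4, -0.39 for Zyx, -0.4 for Tgfb1i1, -0.43 for Col4a2, -0.43 for Fbn1, -0.49 for Mmp16, -0.55 for Fn1, -0.56 for Hoxc5 and -0.57 for Foxc2. Lower values also held, with -1.21 for Col5a3, -1.47 for Msx2, -1.49 for Col18a1, -1.52 for Col10a1 and -1.85 for Pitx1.

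Among the remaining genes, it was 1.74 for Vwf, 1.73 for Fam13a, 1.64 for Kdr, 1.13 for Pdgfb, 1.05 for Mbp, 0.99 for Atf3, 0.86 for Pdgfra, 0.78 for Zim1 and 0.69 for Ppm1k. Further values were 0.6 for Pdgfd, 0.51 for Tgfbr1, 0.36 for Foxo1, 0.35 for Ddx3y, 0.31 for Tgfbr2 and 0.19 for Foxo3. On the negative side it was -0.29 for Tgif1, -0.42 for Polr1a, -0.43 for Tmem150a, -0.51 for Vim, -0.54 for Prrx2, -0.58 for Irs1, -0.65 for Bdnf, -0.67 for Nr4a1 and -0.68 for Wnt2. Lower values also held, with -0.76 for Egr1, -0.96 for Acta1, -0.98 for Cspg4, -1.26 for Stmn2, -1.29 for Krt7, -2.17 for Upk3b and -2.23 for Hist1h3b.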

How the results depend on the processing

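The count of 3740 called genes was 3696 with RLE scaling, 3745 with DESeq2, 3355 without a filter, 3583 with a filter of 1 CPM and 3079 from the 6 libraries alone. With each library left out in turn it ran from 2249 to 3676, with 1473 to 2195 genes higher and 776 to 1481 lower; the lowest values came without Ing1 KO replicate 2, and 872 genes were lower without DKO replicate 2. RLE scaling gave 2019 higher and 1677 lower, and no filter 1799 and 1556. The difference of differences was called for 2675 genes with RLE scaling, 2979 with DESeq2 (1623 positive, 1356 negative), 2260 without a filter and 2737 with a filter of 1 CPM. With each library left out in turn it was called for 1386 to 2720 genes, 855 to 1552 positive and 531 to 1204 negative, lowest without Ing1 KO replicate 2. Without DKO replicate 2 these were 1607, 992 and 615, and without DKO replicate 1 the negative ones were 729. The causes were not tested, though each such fit has fewer libraries. Ing1 itself, not called, ranged from -0.24 to 0.0 on the log2 scale with 1 library left out, the latter without Ing1 KO replicate 3 (edgeR adjusted p = 0.996). Of 171 named genes called, 141 were called under every alternative that tested them and 30 lost the call under at least 1. None of the called ones changed direction. Genes that an alternative filtered out, as the filter of 1 CPM did for some, were not tested in it.

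Same-numbered libraries of both groups deviated from their group means together little, with correlations of 0.0457, 0.018 and 0.076. Libraries of different number had correlations from -0.0713 to 0.0377. Whether the numbers pair the libraries cannot be decided from such values, as each mean rests on 3 libraries. With the replicate block, 3589 genes were called, 2157 higher and 1432 lower, and the difference of differences for 2514.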

Other observations

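The genes next to Gadd45a were looked at because DKO and the labelled Gadd45a KO both carry the label Gadd45a-/-. The labels do not say whether the allele is the same. Of the 50 nearest tested genes, 25 on each side, 8 were called higher and 5 lower, with a median log2 fold change of 0.005, and around Ing1 the numbers were 7 and 9. On chromosome 6, which holds Gadd45a, 28.9% of 731 tested genes were called, against 24.8% over all.

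Where a gene called between DKO and Ing1 KO stood in the WT differed by direction. The WT mean was nearer to DKO than to Ing1 KO for 760 of the 2249 genes called higher (33.8%) and for 860 of the 1491 called lower (57.7%), against 52.8% of the genes not called. Without the macrophage lists the first share was 34.3%, but 2206 of the 2249 genes remained, so it could hardly move. Genes outside those lists that macrophages express, such as Cd36 and Apobec1, stayed in, and the part of macrophage RNA was not tested. By list, the WT mean was nearer to DKO for 14 of 15 called sterol genes, 10 of 10 contractile genes and 11 of 15 p53 genes. It was so for 0 of 12 glycolysis genes and 4 of 19 stress genes.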
